A study of Mus musculus with 69 samples.

Results

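The 10 genes described here encode the coat of the lipid droplet and the machinery that breaks down its triglyceride. They were taken by symbol from the 56953 genes of the count tables, and each symbol matched a single gene. The coat proteins were the perilipins Plin2, Plin3, Plin4 and Plin5, the inhibitors of lipolysis were Hilpda and G0s2, and the lipases and their coactivator were Pnpla2, Abhd5, Lipe and Mgll. Their RNA was measured by poly(A) RNA-Seq in 69 libraries of cultured primary cells of male C57BL/6 mice. Of these, 16 were from aortic vascular smooth muscle cells of wildtype animals (WT VSMC), 15 from aortic VSMC of animals with a floxed Egfr gene and Cre under the SM22 promoter (KO VSMC) and 38 from cardiac endothelial cells (EC), all labelled wildtype and isolated with beads by CD31 after depletion of CD45. Each cell type was kept for 24 h in serum-free medium with albumin under 4 conditions. These were Control, HG+FFA with 20 mM glucose and 100 µM free fatty acids (spelled HG+FFS in the titles), AII+NA with 30 nM angiotensin II and 300 nM catecholamine, and ALL, the combination. The labels name the catecholamine epinephrine and the paper norepinephrine, and where the labels give the fatty acids by their concentration together, the paper gives that concentration for oleate and again for palmitate. Libraries with the same set number came from 1 animal and passage, with 4 sets of WT VSMC, 4 of KO VSMC and 10 of EC from 9 animals. EC sets 9 and 10 came from the animals of WT VSMC sets 1 and 2, and EC sets 15 and 16 from animals that also gave KO VSMC. The comparisons asked how metabolic and humoral stressors change these RNAs, and whether the change depends on Egfr.

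A lipid droplet is a core of triglyceride and sterol ester under a single layer of phospholipid that perilipins cover. Plin2 and Plin3 are found in most cells, Plin4 mainly in fat and muscle, and Plin5 in tissues that burn much fat, such as heart. Triglyceride is broken down in steps: adipose triglyceride lipase (ATGL, the product of Pnpla2) cuts off the first fatty acid with its coactivator Abhd5 and is inhibited by G0s2 and Hilpda, hormone-sensitive lipase (Lipe) acts on the diglyceride, and monoglyceride lipase (Mgll) on the monoglyceride. Fatty acids are ligands of the PPAR nuclear receptors, which bind as dimers with RXR to a pair of AGGTCA-like half-sites spaced by 1 base, and catecholamines drive lipolysis in fat cells through cAMP.

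The promoters of Lipe and Plin2 are shown because these RNAs rose most often. Below, each line gives the 250 bases before a RefSeq transcription start (GRCm38.p6), read 5′ to 3′ on the strand of the gene. For Plin2 they were chr4:86670060-86670309 on the minus strand, and the capitals mark the half-site AGGTCA, read here as its reverse complement TGACCT and beginning 218 bases before the start. For Lipe they were chr7:25395988-25396237 on the minus strand, before the outer of its starts, and the capitals mark an E-box, CACGTG, beginning 155 bases before the start.
Plin2: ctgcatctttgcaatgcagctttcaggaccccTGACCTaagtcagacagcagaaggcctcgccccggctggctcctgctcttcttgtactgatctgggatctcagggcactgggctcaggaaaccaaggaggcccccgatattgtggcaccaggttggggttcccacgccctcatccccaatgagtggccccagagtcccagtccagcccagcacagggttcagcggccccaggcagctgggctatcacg
Lipe: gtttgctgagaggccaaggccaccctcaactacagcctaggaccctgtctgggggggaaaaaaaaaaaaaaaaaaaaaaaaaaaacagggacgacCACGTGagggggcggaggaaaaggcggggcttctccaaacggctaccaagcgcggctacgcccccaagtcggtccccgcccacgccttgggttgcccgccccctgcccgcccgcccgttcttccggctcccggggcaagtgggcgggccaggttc
Both strands of 14 windows of the 10 genes were searched. The half-site AGGTCA was in 3 of the 14 windows, belonging to Abhd5, Plin2 and Plin5, against 14% of 32851 RefSeq windows of this length. ACGTG, the core bound by hypoxia-inducible factors, was in 4 of the 14, belonging to Hilpda, Lipe and Mgll, against 16.6%. CACGTG, which contains it, was in 2 of the 14, belonging to Lipe and Mgll, against 6.02%. A repeat of AGGTCA with a 1-base spacer, a looser repeat of AGGNCA with the same spacer and the cAMP response element TGACGTCA were in 0.0335%, 0.338% and 1.55% of windows, and in none of the 14. These letters are a description of sequence and do not show binding.

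Within 5000 bases on either side of the GENCODE starts (GRCm39), the strict repeat was found at G0s2 alone among the 10, against 2.08% of 21765 genes, and the looser repeat at G0s2 and Plin4, against 16.4%. Each repeat is shown in capitals with its flanking bases, 5′ to 3′ on the minus strand, which is the strand of both genes. The G0s2 repeat, at chr1:192959099-192959151 with its flanks, reads as the reverse complement of the motif and begins at position -3606 relative to the start. That of Plin4, at chr17:56418281-56418333, begins at position -1382, outside the span annotated to Plin4 and to Plin5.
G0s2 repeat: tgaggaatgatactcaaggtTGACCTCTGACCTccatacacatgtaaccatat
Plin4 repeat: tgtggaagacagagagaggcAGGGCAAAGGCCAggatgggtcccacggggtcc

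The libraries held 17166133 to 43240489 counts assigned to genes. Levels are given as FPM, the count of a gene as a share of the library size scaled by TMM, expressed in ppm. Egfr was at 226 to 499.6 FPM in WT VSMC, at 33.7 to 40.2 FPM in set 5 of KO VSMC and at 0.534 to 1.99 FPM in sets 6 to 8, so that set 5 kept part of the targeted RNA. In EC it was at 2.16 to 3.11 FPM in set 16 and 7.46 to 12.2 FPM in set 15, whose animals also gave KO VSMC. EC set 18 was at 10.2 to 17.7 FPM, and EC sets 9, 11 and 13 were highest at 126 to 168 FPM. Whether the EC levels reflect genotype was not tested. The 10 smooth muscle markers summed to 389 to 3548 FPM in all VSMC libraries, in which 10 fibroblast markers summed to 3132 to 26670 FPM. In EC the smooth muscle markers summed to 222 to 3928 FPM, so that this sum does not separate VSMC from EC. The 10 endothelial markers summed to 503 to 5285 FPM in 7 EC sets but to only 55.8 to 149 FPM in sets 9, 11 and 13, against 2.59 to 79.3 FPM in VSMC. Fibroblast markers summed to 782 to 9030 FPM in those 7 EC sets and to 5615 to 23720 FPM in sets 9, 11 and 13. EC results are therefore also given without sets 9, 11 and 13, a choice made after the data were seen. The 10 markers of adipocytes, which express many of these genes, summed to at most 11.7 FPM in any library. In bulk RNA, a change in the share of a cell type and a change per cell cannot be told apart. All VSMC libraries were of batch B1 and all EC libraries of batch B2, so that batch, organ and cell type cannot be told apart either.

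Under Control conditions, 9 of the 10 genes were present in every cell type, and Plin5 was barely detected. Per kilobase of annotated exon, Plin3, the coat protein of newly formed droplets, was the highest in WT VSMC at 17.5 ± 1.84 FPM per kb (SD, n = 4). Pnpla2 (12.7 ± 0.755) and Plin2 (12.7 ± 1.21) followed and did not differ beyond their spread, and Mgll was at 9.63 ± 1.31 FPM per kb. Plin4 (5.69 ± 2.34), Abhd5 (5.56 ± 1.13) and Hilpda (5.04 ± 0.496) lay within the spread of one another and of G0s2, and Lipe was at 2.24 ± 0.683 FPM per kb. The order depended on the length taken: divided by the length of the canonical transcript, Plin2 was first at 47.5 ± 4.55 FPM per kb in WT VSMC and 49.5 ± 6.21 in KO VSMC. In EC its 33.5 ± 7.45 FPM per kb lay within the spread of Plin3 (33.3 ± 8.37) and Pnpla2 (31.1 ± 16.5). In KO VSMC, Pnpla2 (19.1 ± 4.29 FPM per kb of exon), Plin3 (17.6 ± 4.46), Mgll (15.4 ± 2.83), Plin2 (13.2 ± 1.66) and Plin4 (12.4 ± 4.35) overlapped. EC had Plin3 at 18.04 ± 4.53 and Pnpla2 at 16.3 ± 8.63 FPM per kb (n = 9), again within their spread.

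**Figure D1:**
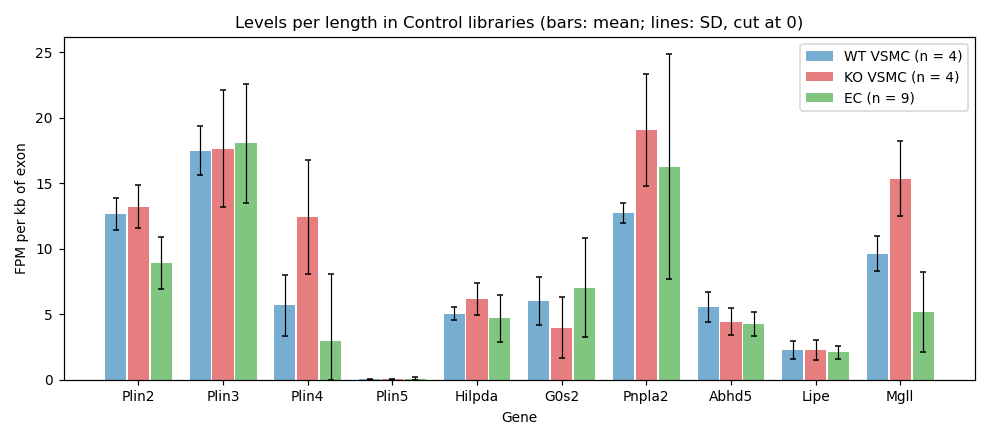
Levels per kilobase of exon of the 10 genes in the Control libraries, with FPM per kb on the vertical axis, bars for the mean of WT VSMC (n = 4), KO VSMC (n = 4) and EC (n = 9), and lines for the SD. Plin3, Pnpla2, Plin2 and Mgll stand highest in WT VSMC, and Plin5 is close to 0 throughout.

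Across the stressor comparisons, Lipe rose wherever HG+FFA was part of the change, Plin2 rose in KO VSMC and EC, and Plin4 rose in some of these comparisons. Mgll was lower without passing the test, and Plin3, Hilpda, G0s2, Pnpla2 and Abhd5 were called in none. A gene was called at an FDR under 0.05 over all genes tested, by edgeR's quasi-likelihood test with the set number in the model. Plin5 did not pass the filter on low counts, which left 9 of the 10. With HG+FFA the test called 2 of these 9 in EC, 2 in KO VSMC and 1 in WT VSMC, all higher, against 3.53%, 0.439% and 0.538% of all genes tested. With ALL, the numbers for WT VSMC, KO VSMC and EC were 1, 2 and 2, against 7.45%, 0.399% and 3.18% of genes. Between ALL and AII+NA, a comparison of the same metabolic stressors on a humoral background, 2, 2 and 3 of the 9 were called, against 1.36%, 0.399% and 3.22%. The median log2 fold change of the 9 genes under HG+FFA was -0.024 in EC, -0.063 in KO VSMC and 0.059 in WT VSMC, beside -0.003, 0.004 and -0.006 over all genes tested.

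**Figure D2:**
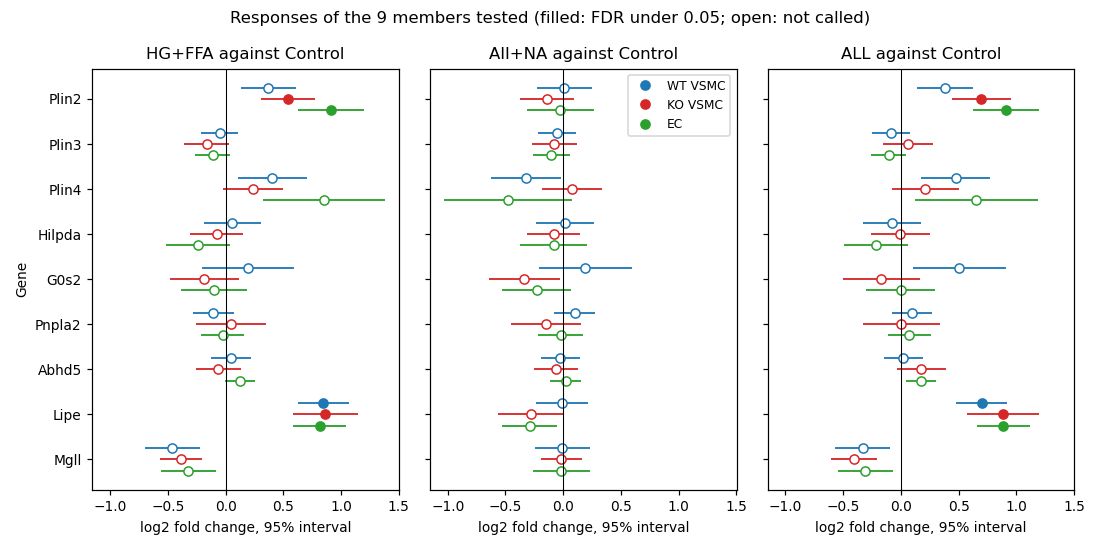
Log2 fold change against Control with its 95% interval (horizontal axis) of the 9 genes tested (vertical axis) under HG+FFA, AII+NA and ALL in WT VSMC, KO VSMC and EC. Filled points passed an FDR of 0.05: Lipe in all 3 cell types and Plin2 in KO VSMC and EC under HG+FFA and ALL, and no gene under AII+NA.

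Lipe (ENSMUSG00000003123, chr7:25078880-25098135 on the minus strand, GRCm39) encodes hormone-sensitive lipase. In WT VSMC it was at 7.655, 13.4, 15.35 and 16.98 FPM in sets 1 to 4 under Control, and at 17.9, 24.6, 27.4 and 24.0 FPM under HG+FFA. ALL gave 16.8, 22.15, 23.7 and 21.6 FPM in the same sets, and AII+NA gave 8.45, 13.7, 14.6 and 15.6 FPM. Every set was higher with the metabolic stressors than without them, and the HG+FFA libraries did not overlap the Control libraries, as for 1.43% of all genes tested. The log2 fold change was 0.85 (SE 0.10, edgeR FDR = 0.00145) under HG+FFA and 0.70 (SE 0.11, edgeR FDR = 0.001245) under ALL. Under ALL, 2 of 10 smooth muscle markers rose in WT VSMC (median log2 fold change 0.727), as did 1 cardiomyocyte marker, Tnnt2, while 2 of 10 endothelial markers, 2 of 10 fibroblast markers (Pi16 and Clec3b) and 1 of 10 macrophage markers (C1qb) fell. Under HG+FFA 1 of 10 fibroblast markers, Pi16, fell by 0.71 (SE 0.11, edgeR FDR = 0.00649) on the log2 scale, and the medians of the smooth muscle and endothelial lists were 0.01 and -0.109. The part of these markers in the results was not tested.

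KO VSMC had Lipe at 19.3, 9.30, 11.2 and 14.6 FPM in sets 5 to 8 under Control and at 31.0, 24.7, 20.05 and 21.3 FPM under HG+FFA. Under ALL, sets 6 to 8 gave 23.7, 20.7 and 20.2 FPM, and under AII+NA sets 5 to 8 gave 17.1, 9.77, 8.755 and 9.42 FPM. No library with the metabolic stressors was as low as the highest Control library. Of all genes tested, 1.11% did not overlap between HG+FFA and Control and 3.22% between ALL and Control. The log2 fold change was 0.86 (SE 0.13, edgeR FDR = 0.0090) under HG+FFA and 0.89 (SE 0.15, edgeR FDR = 0.0176) under ALL. These calls were lost without set 6 or set 7: without set 6 the changes were 0.66 (edgeR FDR = 0.1935) and 0.69 (edgeR FDR = 0.196), and without set 7 they were 0.87 in both (edgeR FDR = 0.254 and 0.461), while they were kept without set 5 or set 8.

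In EC, Lipe ran from 7.87 to 17.55 FPM with a median of 12.6 under Control (n = 9), from 5.97 to 16.3 FPM with a median of 7.885 under AII+NA (n = 9), from 10.6 to 32.5 FPM with a median of 20.35 under HG+FFA (n = 10) and from 12.9 to 33.5 FPM with a median of 21.5 under ALL (n = 10). The groups overlapped, but within sets each of 9 pairs was higher under HG+FFA and under ALL than under Control. Log2 fold changes were 0.81 (SE 0.11, edgeR FDR = 2.365e-05) and 0.89 (SE 0.11, edgeR FDR = 6.078e-06). Without sets 9, 11 and 13 they were 0.84 (edgeR FDR = 0.000705) and 0.88 (edgeR FDR = 0.000343), and without sets 15 and 16 the calls were kept as well. Under HG+FFA, 4 of 10 fibroblast markers fell in EC (median log2 fold change -0.593) and 1 of 10 endothelial markers rose, and their part in the EC results was not tested.

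The comparison of ALL with AII+NA contrasts other libraries than that of HG+FFA with Control. Both came from the same sets and the same fit, with a shared estimate of the spread, so they are not independent. Between AII+NA and ALL, Lipe rose by 0.71 (SE 0.11, edgeR FDR = 0.00416) on the log2 scale in WT VSMC, 1.16 (SE 0.15, edgeR FDR = 0.00293) in KO VSMC and 1.18 (SE 0.11, edgeR FDR = 1.971e-08) in EC. It was higher in 4 of 4, 3 of 3 and 9 of 9 sets. In WT VSMC the call was lost without set 3 (0.71, edgeR FDR = 0.0549), and in KO VSMC without set 6 (1.10, edgeR FDR = 0.0605) or set 7 (1.13, edgeR FDR = 0.130). Of the exonic bases of Lipe, 22.3% are shared with 4732471J01Rik on the opposite strand, and the counting strand is not given in the sources used here. That gene was at no more than 2.93 FPM in any library, and its log2 fold change under HG+FFA was 0.32 (SE 0.23, edgeR FDR = 0.662) in WT VSMC, -0.02 (SE 0.36, edgeR FDR = 0.991) in KO VSMC and 0.56 (SE 0.43, edgeR FDR = 0.557) in EC.

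Plin2 (ENSMUSG00000028494, chr4:86565912-86588459 on the minus strand) encodes the coat protein that most cells place on their droplets when loaded with fatty acid. In WT VSMC sets 1 to 4 gave 92.3, 100.3, 109.2 and 88.0 FPM under Control, 160, 102, 141 and 107.5 FPM under HG+FFA, and 157, 123, 134 and 98.4 FPM under ALL. All 4 sets were higher than their Control with either, set 2 under HG+FFA by very little, and the groups overlapped. The log2 fold changes of 0.37 (SE 0.11, edgeR FDR = 0.190) and 0.38 (SE 0.11, edgeR FDR = 0.0525) did not pass. Under ALL this depended on the tool, since DESeq2, which called 9.73% of genes, gave 0.39 (FDR = 0.0198) and DESeq2's size factors in edgeR 0.39 (FDR = 0.0497).

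KO VSMC sets 5 to 8 gave 93.6, 89.0, 107 and 117 FPM of Plin2 under Control and 149, 135, 167.5 and 139 FPM under HG+FFA. Sets 6 to 8 gave 153, 192 and 146.5 FPM under ALL. The stressor libraries did not overlap the Control libraries in either case. Plin2 rose by 0.54 (SE 0.11, edgeR FDR = 0.0402) under HG+FFA and by 0.70 (SE 0.12, edgeR FDR = 0.01995) under ALL on the log2 scale. Without set 6 the values were 0.49 (edgeR FDR = 0.422) and 0.65 (edgeR FDR = 0.229), and without set 7 0.51 (edgeR FDR = 0.444) and 0.60 (edgeR FDR = 0.484). The HG+FFA call was also lost with DESeq2's size factors (0.53, edgeR FDR = 0.0515) and in a fit of HG+FFA and Control alone (0.53, edgeR FDR = 0.672).

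EC had Plin2 between 37.4 and 86.7 FPM with a median of 70.3 under Control (n = 9) and between 49.6 and 95.9 FPM with a median of 66.4 under AII+NA (n = 9). It was between 80.0 and 248.5 FPM with a median of 116 under HG+FFA (n = 10), and between 78.0 and 272 FPM with a median of 111 under ALL (n = 10). All 9 pairs were higher with the metabolic stressors, and the log2 fold change was 0.91 (SE 0.14) in both, with an edgeR FDR of 9.881e-05 for HG+FFA and 0.000104 for ALL. Set 17 went from 37.4 to 123 FPM, and set 18, from the same animal, went from 86.7 to 248.5 FPM, while set 16 went from 79.6 to 105 FPM. With the animal in place of the set as block and without sets 9, 11 and 13 the calls were kept, at 0.998 (edgeR FDR = 0.00162) for HG+FFA and 1.02 (edgeR FDR = 0.00139) for ALL in the latter. Against AII+NA, Plin2 under ALL was higher by 0.84 (SE 0.12, edgeR FDR = 0.004415) in KO VSMC and 0.93 (SE 0.14, edgeR FDR = 7.503e-05) in EC, and the 0.37 (SE 0.11, edgeR FDR = 0.125) of WT VSMC did not pass. The KO VSMC value was 0.89 (edgeR FDR = 0.122) without set 6 and 0.69 (edgeR FDR = 0.300) without set 7.

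**Figure D3:**
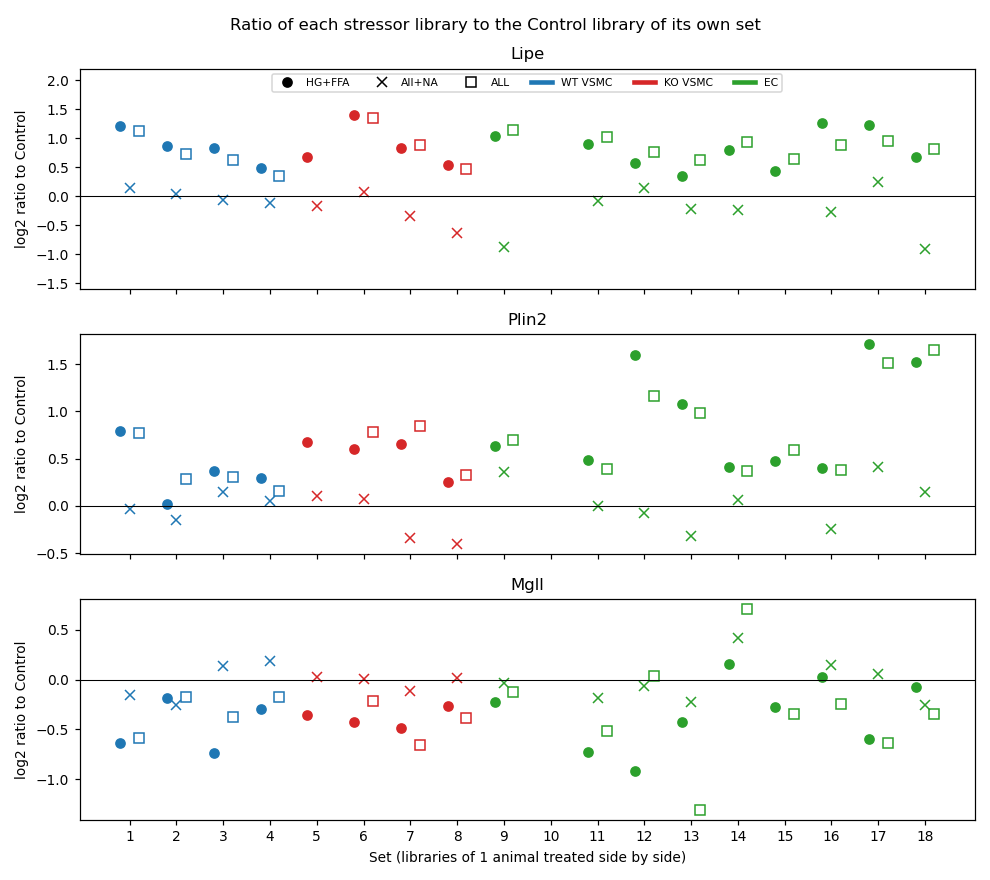
Log2 ratio of each stressor library to the Control library of its set (vertical axis) for Lipe, Plin2 and Mgll, by set number (horizontal axis), in WT VSMC (sets 1 to 4), KO VSMC (5 to 8) and EC (9 to 18). For Lipe and Plin2 every HG+FFA and ALL point lies above 0, while the AII+NA points lie on both sides of it.

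Plin4 (ENSMUSG00000002831, chr17:56406617-56416931 on the minus strand), a long perilipin of fat and muscle, differed widely between sets. WT VSMC sets 1 to 4 gave 20.1, 65.1, 48.3 and 48.4 FPM under Control, 30.4, 86.2, 65.4 and 55.8 FPM under HG+FFA, 15.3, 45.75, 44.85 and 38.5 FPM under AII+NA, and 39.7, 102, 58.05 and 46.0 FPM under ALL. It was called only between AII+NA and ALL, where it was higher by 0.79 (SE 0.14, edgeR FDR = 0.0121) on the log2 scale and in 4 of 4 sets. That call was lost without set 1 (0.60, edgeR FDR = 0.0947), without set 2 (0.66, edgeR FDR = 0.102) and in a fit of these groups alone (0.77, edgeR FDR = 0.0715). Against Control the changes were 0.40 (SE 0.14, edgeR FDR = 0.267) under HG+FFA, -0.32 (SE 0.14, edgeR FDR = 0.503) under AII+NA and 0.47 (SE 0.14, edgeR FDR = 0.0540) under ALL, the last called without set 4 (0.64, edgeR FDR = 0.0284) and by DESeq2 (FDR = 0.0177). Plin4 was higher than Control in 4 of 4 sets under HG+FFA, lower in 4 of 4 under AII+NA and higher in 3 of 4 under ALL.

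In EC, set 9 held 98.8 FPM of Plin4 under AII+NA, 126 under Control, 157 under HG+FFA and 169 under ALL, and set 13 held 48.5, 44.3, 67.0 and 58.1 FPM. Both are among the sets with the fewest endothelial transcripts, while set 11, the remaining one, was at 2.37 to 4.67 FPM. The 7 other sets ran from 2.95 to 25.3 FPM over all conditions. In these, the Control libraries were near 3 to 6 FPM except for set 18 (19.7 FPM), and HG+FFA libraries reached 22.5 and 25.3 FPM in sets 16 and 17. Plin4 rose in EC between AII+NA and ALL, by 1.13 (SE 0.26, edgeR FDR = 0.00965) and in 9 of 9 sets, and by 1.44 (edgeR FDR = 0.02515) without sets 9, 11 and 13. Under HG+FFA it was higher in 8 of 9 sets without passing (0.85, SE 0.26, edgeR FDR = 0.0612), though DESeq2, which called 5.65% of genes, gave an FDR of 0.0431. KO VSMC sets 5 to 8 gave 57.9, 137, 116 and 86.4 FPM under Control and 51.4, 166, 122 and 144.5 FPM under HG+FFA, with no change called in any comparison. Of the exonic bases of Plin4, 39.1% are shared with Hdgfl2 on the opposite strand. Hdgfl2 was at 40.8 to 119 FPM, and its log2 fold change between AII+NA and ALL was 0.01 (SE 0.06, edgeR FDR = 0.969) in WT VSMC and 0.03 (SE 0.06, edgeR FDR = 0.8555) in EC.

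Mgll (ENSMUSG00000033174, chr6:88652108-88805342 on the plus strand), the lipase of the final step, was lower with the metabolic stressors in each cell type without passing the test. WT VSMC sets 1 to 4 gave 63.4, 61.7, 47.5 and 65.4 FPM under Control, 40.6, 54.2, 28.5 and 53.3 FPM under HG+FFA and 42.0, 54.6, 36.6 and 58.0 FPM under ALL. KO VSMC sets 5 to 8 gave 106, 111, 90.8 and 72.0 FPM under Control and 82.2, 82.8, 64.7 and 59.8 FPM under HG+FFA, with 95.7, 57.5 and 55.0 FPM in sets 6 to 8 under ALL. All sets of both genotypes were lower than their Control. The log2 fold changes under HG+FFA were -0.46 (SE 0.11, edgeR FDR = 0.0829) in WT VSMC, -0.39 (SE 0.08, edgeR FDR = 0.0671) in KO VSMC and -0.32 (SE 0.12, edgeR FDR = 0.127) in EC, where 7 of 9 sets were lower. Their unadjusted p-values by edgeR were 0.000798, 0.00034 and 0.00956, and 11.2%, 12.4% and 16.9% of all genes had one under 0.05. The call turned on the fit: without set 2 WT VSMC gave -0.56 (edgeR FDR = 0.0265), without set 5 KO VSMC gave -0.40 (edgeR FDR = 0.0311), and DESeq2, which called 1.74% and 1.4% of genes, gave an FDR of 0.0141 and 0.001135 in the complete data. In KO VSMC DESeq2 also gave 0.00281 for ALL against Control and 0.00742 for ALL against AII+NA, comparisons in which it called 1.48% and 1.71% of genes. Under ALL the changes were -0.33 (SE 0.11, edgeR FDR = 0.0862), -0.41 (SE 0.09, edgeR FDR = 0.0878) and -0.31 (SE 0.12, edgeR FDR = 0.160).

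**Figure D4:**
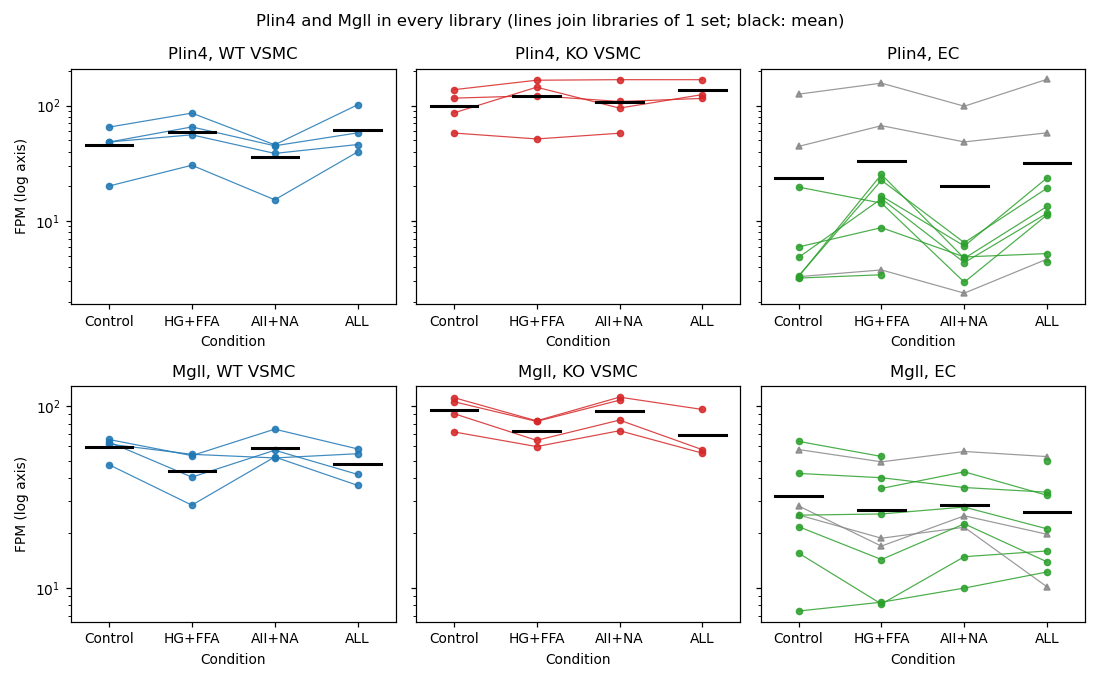
Plin4 (upper row) and Mgll (lower row) in FPM on a log axis (vertical) in every library by condition (horizontal), with lines joining the libraries of a set and black bars for the mean. EC sets 9, 11 and 13 are grey triangles, and sets 9 and 13 carry the highest Plin4 of EC in every condition. Mgll libraries under HG+FFA lie below the Control library of the same set in all 8 VSMC sets.

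The inhibitors of ATGL were not called in any comparison of conditions. G0s2 (chr1:192949563-192956177 on the minus strand) was at 27.5, 25.0, 38.5 and 18.5 FPM in WT VSMC sets 1 to 4 under Control and at 21.6, 44.9, 46.2 and 43.25 FPM under ALL. It was thus higher in sets 2 to 4 and lower in set 1, and the change of 0.51 (SE 0.19, edgeR FDR = 0.122) became 0.77 (edgeR FDR = 0.0206) without set 1. In KO VSMC its level differed widely between sets, at 30.5, 6.22, 22.7 and 13.1 FPM under Control, and in EC it ran from 2.72 to 52.0 FPM with a median of 39.8 under Control. Hilpda (chr6:29272409-29276301 on the plus strand), which is also known as a target of hypoxia-inducible factors, stayed between 8.03 and 12.9 FPM in WT VSMC, with log2 fold changes of 0.06 (SE 0.12) under HG+FFA and -0.08 (SE 0.12) under ALL. In EC the values were -0.24 (SE 0.14, edgeR FDR = 0.381) and -0.22 (SE 0.14, edgeR FDR = 0.456).

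ATGL itself and its coactivator were not called by edgeR in any comparison of conditions. Pnpla2 (chr7:141034404-141040656 on the plus strand) gave 53.2, 51.8, 46.4 and 49.2 FPM in WT VSMC sets 1 to 4 under Control and 52.5, 49.8, 40.9 and 43.6 FPM under HG+FFA. Its log2 fold change under HG+FFA was -0.11 (SE 0.08, 95% interval -0.28 to 0.07) in WT VSMC, 0.05 (SE 0.14, -0.25 to 0.35) in KO VSMC and -0.02 (SE 0.09, -0.21 to 0.16) in EC. Among EC sets its Control level varied from 19.5 to 116 FPM. Abhd5 (chr9:122180621-122222936 on the plus strand) ran from 29.0 to 51.3 FPM over all WT VSMC libraries, with log2 fold changes under HG+FFA of 0.05 (SE 0.08, -0.12 to 0.22), -0.06 (SE 0.09, -0.26 to 0.13) and 0.12 (SE 0.06, -0.01 to 0.26). Under ALL it was higher in 7 of 9 EC sets (0.18, SE 0.06, 95% interval 0.04 to 0.31, edgeR FDR = 0.139). 

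Of the remaining perilipins, Plin3 (chr17:56584218-56599873 on the minus strand) had 115, 125, 147 and 124 FPM in WT VSMC sets 1 to 4 under Control and 106, 108.9, 145 and 135 FPM under HG+FFA. Its log2 fold change under HG+FFA was -0.05 (SE 0.08, 95% interval -0.22 to 0.11) in WT VSMC, -0.16 (SE 0.09, -0.36 to 0.03) in KO VSMC and -0.11 (SE 0.07, -0.26 to 0.04) in EC. Plin5 (chr17:56418446-56424610 on the minus strand), the neighbour of Plin4, had group means of 0.0650 to 0.278 FPM and was highest in the Control library of EC set 17 with 1.27 FPM. At this depth no difference was detectable for it.

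The humoral stressors alone gave no call. Under AII+NA none of the 9 was called in WT VSMC, KO VSMC or EC, against 0.0532%, 0% and 0% of all genes tested, and at an unadjusted p under 0.05 by edgeR there was 1 member in each, Plin4 in WT VSMC, G0s2 in KO VSMC and Lipe in EC, against 9.42%, 9.76% and 6.67% of genes. DESeq2 called none of them either, against 1%, 0.0627% and 0% of genes. Lipe was lower in 6 of 8 EC sets (-0.29, SE 0.12, edgeR FDR = 0.719), and its log2 fold change in WT VSMC was -0.01 (SE 0.11, 95% interval -0.24 to 0.22). For Plin2 the interval was -0.23 to 0.25 in WT VSMC, -0.37 to 0.09 in KO VSMC and -0.32 to 0.26 in EC.

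Adding the humoral to the metabolic stressors also gave no call. Between HG+FFA and ALL none of the 9 passed in any cell type, against 0.0414%, 0% and 0% of genes in WT VSMC, KO VSMC and EC. At an unadjusted p under 0.05 by edgeR there were Pnpla2 in WT VSMC, Plin3 and Abhd5 in KO VSMC and none in EC, against 10.8%, 2.91% and 5.14% of genes, and DESeq2 called none, against 1.33%, 0% and 0%. In WT VSMC the differences were 0.01 (SE 0.11) for Plin2, 0.07 (SE 0.14) for Plin4 and -0.15 (SE 0.10) for Lipe, with Lipe lower in 4 of 4 sets, and Pnpla2 was higher by 0.20 (SE 0.08, edgeR FDR = 0.380) in 4 of 4. The departure from additivity, which is the log2 change under ALL less the sum of those under either stressor alone, was called by edgeR for 0% of genes in all 3 cell types and by DESeq2 for none, with 1.72%, 6.59% and 8.42% of genes at an unadjusted p under 0.05. Among the members these were none in WT VSMC, Plin3 and Abhd5 in KO VSMC and Lipe in EC. In WT VSMC it was 0.0004 (SE 0.16, 95% interval -0.34 to 0.34) for Plin2, -0.14 (SE 0.15, -0.45 to 0.17) for Lipe and 0.39 (SE 0.20, -0.04 to 0.81) for Plin4. In KO VSMC it was 0.30 (SE 0.16, -0.05 to 0.64) for Plin2 and 0.30 (SE 0.20, -0.12 to 0.72) for Lipe, and for Lipe in EC 0.37 (SE 0.16, edgeR FDR = 0.570).

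No member was called between the genotypes by edgeR. In Control libraries of KO VSMC against WT VSMC, 0.00622% of genes were called by edgeR and 2.13% by DESeq2, and 12.2% had an unadjusted p under 0.05. Egfr, the targeted gene, was itself not called by edgeR here, at -5.15 (SE 1.37, edgeR FDR = 0.320) on the log2 scale. The absence of a call in this fit thus does not show equal levels. Plin4 was 1.12 higher on the log2 scale (SE 0.36, edgeR FDR = 0.374), Mgll 0.67 (SE 0.17, edgeR FDR = 0.316, DESeq2 FDR = 0.0319) and Pnpla2 0.57 (SE 0.17, edgeR FDR = 0.340), and their unadjusted p-values by edgeR lay between 0.00353 and 0.0128. Pnpla2 and Mgll did not overlap between the genotypes in Control, which held for 2 of the 9 members and 5.26% of all genes. In the same comparison all 9 smooth muscle markers tested were higher in KO VSMC (median log2 fold change 0.919) and all 10 fibroblast markers lower (median -1.715), with 6 of each list at an unadjusted p under 0.05, and their part in these differences was not tested. Lipe (0.02, SE 0.30) and Plin2 (0.05, SE 0.15) were close to 0. The response itself, as the effect in KO VSMC minus that in WT VSMC, was called for no member, against 0% of genes for HG+FFA and AII+NA and 0.0109% for ALL, and DESeq2 called none of the 9 either, against 0%, 0% and 0.316%. At an unadjusted p under 0.05 by edgeR there was 1 member, G0s2 under ALL, against 7.42% of genes, and none for HG+FFA (3.08%) and AII+NA (11.9%). For Lipe it was 0.01 (SE 0.17, 95% interval -0.34 to 0.36) under HG+FFA and 0.18 (SE 0.18, -0.19 to 0.55) under ALL. For Plin2 it was 0.17 (SE 0.16, -0.17 to 0.50) and 0.31 (SE 0.17, -0.04 to 0.67), and for G0s2 under ALL -0.67 (SE 0.27, edgeR FDR = 0.592). The call of Plin2 in KO VSMC and its absence in WT VSMC thus do not show a difference between the genotypes.

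Between cell types, no member was called in Control libraries of EC against WT VSMC, where 12% of genes were, and DESeq2 called none of the 9 either, against 21.1%. At an unadjusted p under 0.05 there was 1 member, Plin2, against 30.5% of genes. Plin2 was lower by 0.49 (SE 0.19, edgeR FDR = 0.09295) and Mgll by 0.88 (SE 0.41, edgeR FDR = 0.165) on the log2 scale. Plin4 was at -0.91 (SE 0.96, edgeR FDR = 0.5535). Without EC sets 9, 11 and 13, Plin4 was lower in EC by 2.72 (SE 0.55, edgeR FDR = 0.00473) and was the only one of the 9 members called, in a fit that called 28.5% of genes. In those 6 EC libraries it was at 3.20 to 19.7 FPM, against 20.1 to 65.1 FPM in WT VSMC. The animal of EC set 9 also gave WT VSMC set 1, and EC sets 17 and 18 came from 1 animal. The fits without a block took neither into account, and none was run without set 17 or set 18. With WT VSMC set 1 left out instead, no member was called by edgeR, and Plin4 was at -1.16 (SE 1.06, edgeR FDR = 0.534). Whether EC and VSMC respond differently to the stressors was not tested.

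The genes around lipolysis were described by lists chosen with earlier results known. Of 20 PPAR target genes of fatty acid oxidation, 18 were tested, and under HG+FFA 10 rose in EC, 6 in KO VSMC and 2 in WT VSMC, with none lower and median log2 fold changes of 0.342, 0.323 and 0.21. Among them, Angptl4, a secreted inhibitor of lipoprotein lipase, rose by 2.13 (SE 0.36, edgeR FDR = 0.0151) in KO VSMC and 3.22 (SE 0.31, edgeR FDR = 2.252e-08) in EC on the log2 scale, and Pdk4, a kinase that limits pyruvate oxidation, by 1.52 (SE 0.23, edgeR FDR = 0.00667) in WT VSMC. Of 16 genes of triglyceride synthesis, Agpat3 rose in KO VSMC (0.47, SE 0.09, edgeR FDR = 0.0393) and EC (0.25, SE 0.07, edgeR FDR = 0.0345), and Gpam, which starts glycerolipid synthesis, fell by 0.38 in EC (SE 0.07, edgeR FDR = 0.001245). Of 19 other lipid droplet proteins, 11 to 13 were tested and none was called by edgeR under HG+FFA, ALL or AII+NA, with 0, 0 and 2 at an unadjusted p under 0.05 under HG+FFA in WT VSMC, KO VSMC and EC. Of 14 genes of adrenergic and PKA control of lipolysis, 12 were tested and 1, Akap1, an anchor of PKA, rose in EC under HG+FFA (0.26, SE 0.07, edgeR FDR = 0.02885) and in WT VSMC under ALL (0.31, SE 0.08, edgeR FDR = 0.0283). Of 14 HIF target genes, Ndrg1 fell by 0.45 in WT VSMC (SE 0.09, edgeR FDR = 0.0241) and by 0.57 in EC (SE 0.08, edgeR FDR = 5.399e-05) under HG+FFA, while Adm, a vasodilator peptide, rose in EC (0.46, SE 0.10, edgeR FDR = 0.00535).

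Over the 69 libraries, with each set centred on its own mean of log2(FPM + 0.1), the pattern of Plin2 was most like that of Acadl (Pearson r = 0.899), a mitochondrial acyl-CoA dehydrogenase, followed by Angptl4 (0.885), Ech1 (0.862), an enoyl-CoA isomerase, Slc43a3 (0.85) and Rpa1 (0.848), among 15880 genes tested in all cell types. Lipe ranked 27 with 0.788, Plin4 was at 0.672 and Abhd5 at 0.578. Mgll was at -0.658, and Plin3 (-0.173), Hilpda (-0.132) and G0s2 (0.04) were near 0. The points share their sets, conditions and library scaling, so these values describe the libraries and carry no test.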

How the data were processed

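The authors deposited raw counts, 1 table per cell type with a column for each library, of reads assigned to the exons of Ensembl genes. Per the labels and the methods of the study, reads were aligned with HISAT2 2.1.0 to mm39 and counted with featureCounts, multi-mapping reads included. The strand setting and any fractional counting are not given in the sources used here. Genes with near-identical copies or overlaps could therefore gain or lose reads.

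Groups came from the labels. The 10 genes, the other lists and the marker lists were chosen with earlier results of these data known. Of 56953 gene identifiers, 56310 were in the GENCODE annotation. Library totals were 17166133 to 43240489 counts, and 16905 to 17538 genes per cell type passed edgeR's filterByExpr.

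Each cell type was fitted with edgeR 4.0.16 in R 4.3.3 (TMM scaling, quasi-likelihood F test) with set and condition as terms. The study paired libraries by animal, which is the same in VSMC, while EC sets 17 and 18 came from 1 animal. Genotype differences were fitted over all VSMC libraries, and the Control levels between genotypes or cell types without a block. P-values were adjusted by Benjamini and Hochberg over all genes tested, with a threshold of 0.05. FPM are counts in ppm of the TMM-scaled library, and 0.1 was added before taking logs for the comparison of patterns. The SE was derived from the test, as the size of the log2 fold change divided by the square root of the F statistic. The 95% intervals were built from this SE with the t distribution. As the pairing check, libraries of a set deviated together from their group means, with a mean correlation of 0.74 in EC, 0.696 in KO VSMC and 0.722 in WT VSMC (lowest 0.462) over 15880 genes, against -0.085, -0.259 and -0.255 between sets. Centring on the group means by itself pushes the values between sets below 0, so they are no reference for unpaired libraries. Libraries of 1 animal differ only by culture dish, so that the number of animals limits the precision.

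Alternatives were DESeq2 1.42.0, its size factors in edgeR, no filter on counts, no block, fits of only the 2 groups compared, each VSMC set left out in turn, EC by animal or without sets 15 and 16, and the rule of the study for changed genes (FDR under 0.05 in edgeR and DESeq2, a log2 fold change of at least 0.64 and at least 3 FPM). Leaving out EC sets 9, 11 and 13 was added after the data were seen. The fits were tested on simulated data. Named were all 10 genes, Egfr, up to 4 called genes of each other list with the largest change, overlapping genes and the 5 genes most like Plin2. The pattern of 1 further gene beside that of Lipe is not reported here. Motifs were counted in windows from RefSeq and GENCODE. ALL of KO VSMC set 5, Control of EC set 10 and AII+NA of EC set 15 were not analysed here. Tables and figures were made with Python 3.11.15, pandas 2.3.3 and matplotlib 3.10.9.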

Additional observations from a re-analysis of the deposited data

Results flagged for a closer look

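In 110 groups of 4 to 10 libraries, 1 library stood far from all others by Dixon's test in 12. For independent groups with normally distributed values, 5.5 would be expected. The groups share sets and some values lie near 0, so 5.5 is only a rough reference and the excess was not tested. In EC, set 9 was the highest for Plin4 in every condition, with 125.7 FPM under Control (next 44.28), 156.7 under HG+FFA (next 67.02), 98.83 under AII+NA (next 48.46) and 169.3 under ALL (next 58.1). This set was 1 of the 3 with few endothelial transcripts. Plin5 stood apart in 3 EC groups at levels near the limit of detection, with 1.273 FPM in set 17 under Control, 0.801 FPM in set 18 under HG+FFA and 1.085 FPM in set 14 under ALL, where the next libraries held 0.3095, 0.3753 and 0.4293 FPM. Hilpda was at 15.29 FPM in EC set 11 under HG+FFA, the next library being at 9.986 FPM.

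In VSMC, Plin2 was at 120.5 FPM in WT set 3 under AII+NA, where the others lay between 90.05 and 91.47 FPM. G0s2 was lowest in WT set 1 under ALL, with 21.59 FPM against 43.25 to 46.2 FPM in the others, and the result without this set is given above. Abhd5 was at 49.57 FPM in WT set 1 under HG+FFA, against 37.08 to 38.64 FPM. Lipe was at 17.13 FPM in KO set 5 under AII+NA, against 8.755 to 9.767 FPM, and this set also kept part of its Egfr RNA. The group of 3 libraries of KO VSMC under ALL was too small to be examined in this way.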

How the results depend on the processing

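Of the 17 calls of a member, all kept their direction under every alternative run. DESeq2, no filter on counts, the block by animal and leaving out EC sets 15 and 16, or sets 9, 11 and 13, kept every call they covered. Without the replicate block, 16 of 17 calls were lost, and the number of members called went from 1 to 0 in WT VSMC under HG+FFA and under ALL, from 2 to 0 in the 3 called comparisons of KO VSMC and in WT VSMC between ALL and AII+NA, from 2 to 0 in EC under HG+FFA and ALL, and from 3 to 1 in EC between ALL and AII+NA.

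Without the filter on counts there were 4 in place of 1 in WT VSMC under HG+FFA, 1 in place of 0 under AII+NA, 5 in place of 1 under ALL and 5 in place of 2 between ALL and AII+NA, 4 in place of 2 in EC under HG+FFA, 3 in place of 2 in EC under ALL and in KO VSMC under HG+FFA, 1 in place of 0 in EC under AII+NA, and 1 in place of 0 for the genotype difference under ALL. DESeq2 gave 2 in place of 1 in WT VSMC under HG+FFA, 3 in place of 1 under ALL, 3 in place of 2 in the 3 called comparisons of KO VSMC and in EC under HG+FFA, and 1 in place of 0 between genotypes in Control. Its size factors in edgeR gave 2 in place of 1 in WT VSMC under ALL and 1 in place of 2 in KO VSMC under HG+FFA. Fits of only the 2 groups compared gave 3 in place of 1 in WT VSMC under HG+FFA, 1 in place of 2 between ALL and AII+NA, 3 in place of 2 in KO VSMC between these, and 0 in place of 2 in KO VSMC under HG+FFA. In KO VSMC under HG+FFA the study's rule gave 1, against 0.285% of genes. Without EC sets 9, 11 and 13, EC against WT VSMC gave 1 in place of 0.

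Leaving out 1 set gave 0 to 3 in KO VSMC under HG+FFA, 0 to 2 under ALL and between ALL and AII+NA, and 1 to 2 in these 3 comparisons of WT VSMC, and 0 in all other comparisons so examined. The 3 counts of KO VSMC that fell to 0 did so without set 6 and without set 7. For the fits without the block, without the filter, with other size factors, of 2 groups or with 1 set left out, the share of all genes called is not given here. Their counts therefore do not tell a change in the members from a change over all genes. The causes were not tested. With 4 VSMC sets per genotype, small changes of single genes could not be detected.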

Other observations

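The pattern of Lipe over the 69 libraries, with each set centred on its mean, was examined in the same way as that of Plin2, a choice made after the values were seen. It was most like Ech1 (Pearson r = 0.922), an enzyme of fatty acid oxidation, and Agpat3 (0.919), an acyltransferase of glycerolipid synthesis, and it was also like Angptl4 (0.867) and Gabre (0.863), among 15880 genes. Ech1 and Angptl4 were also among the 5 genes most like Plin2. For Ech1 the value was 0.897 in EC, 0.988 in KO VSMC and 0.922 in WT VSMC taken alone. Mgll was at -0.577 with Lipe. The libraries share sets and conditions, and no test was run.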
